A study of Mus musculus with 6 samples.

Results

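The 6 libraries of this study came from lumbar dorsal root ganglia of mouse embryos at E12.5, 3 from control mice and 3 from miR_cKO mice, in which the miR-183-96-182 cluster was floxed on both alleles and deleted with Wnt1-Cre. Across genotype, the libraries were put on 2 sides: control 1, control 3 and miR_cKO 1 (called set A here) and control 2, miR_cKO 2 and miR_cKO 3 (set B). This grouping was taken from the expression values themselves and not from any label, so each set mixes genotypes, and every difference between the sets is given as a description with no test. All 6 of the 6 libraries belong to one set or the other, 3 in each. Set A holds 2 controls and 1 miR_cKO, and set B holds 1 control and 2 miR_cKO.

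All mice were on a mixed C57/Bl6 x 129/SvEv background. Controls 1 and 3 were titled as Wnt-Cre mice and control 2 as wild type, so among the controls the sets coincide with the titled Cre status and the 2 cannot be told apart there. The miR_cKO libraries, which all carry Cre, lie in both sets. Wnt1-Cre acts in the neural crest, so in miR_cKO mice both the sensory neurons and the glia of the ganglion carry the deletion. Polyadenylated RNA extracted with Trizol was made into stranded libraries, and all 6 share 1 sequencing run and lane in the labels. The sources used here do not say whether a library pooled several embryos or whether embryos were littermates. The p-values given for genotype therefore measure only the spread between these libraries.

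As background, dorsal root ganglia form from neural crest cells that migrate out of the dorsal neural tube. Dividing progenitors express neurogenins and Notch pathway genes, leave the cell cycle, and become sensory neurons in waves, with the large mechanosensory and proprioceptive neurons born first and most of the small nociceptors born later. Newly formed nociceptors acquire their sodium channels, TRP channels and neuropeptides over the following days, while satellite glia and Schwann cell precursors form from the same crest.

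Values are in RPKM (reads per kilobase of transcript per M mapped reads, M for mega) and were compared as log2(RPKM + 1), on which a difference of 1 is a doubling and differences of genes near 1 RPKM are understated. Of 24264 genes, 13118 had 1 RPKM or more in at least 3 libraries and were kept. At that threshold, 214 kept genes reached 1 RPKM in exactly 3 libraries and 273 genes just missed it with 2. A gene is called parted where its 3 values in one set all lie above its 3 values in the other.

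Depth estimated from the steps of the low values was 20.3 to 22.6 M reads in set A and 20.9 to 24.4 M in set B, so the sets overlapped in depth. Markers of sensory neurons were abundant in every library: Pou4f1 lay between 66.1 and 83.2 RPKM and Isl1 between 143 and 202 RPKM. Some markers of neighbouring tissues were high in single libraries of either set. Actc1, a muscle actin, was at 56.3 and 41.2 RPKM in controls 2 and 3 and between 1.31 and 6.09 RPKM in the other 4 libraries. Lhx1, a factor of spinal interneurons, was at 9.07 RPKM in miR_cKO 3 and at most 1.90 RPKM elsewhere. Globin transcripts took between 1.57% and 6.47% of the summed values, with both extremes in set A. Xist, which coats the inactive X, stood at 96.0 RPKM in miR_cKO 1 and at most 0.0890 RPKM in the other 5 libraries, and the Y-linked genes were near 0 in miR_cKO 1 alone.

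Over the kept genes, the first principal component held 42.7% of the variance and the second 26.7%. On the first, set A scored 12.2 (control 1), 4.39 (control 3) and 22.0 (miR_cKO 1), and set B scored -18.0 (control 2), -3.72 (miR_cKO 2) and -16.9 (miR_cKO 3). Control 3 and miR_cKO 2 were thus the libraries nearest the border, and miR_cKO 1 and control 2 the furthest from it. The second component ran from 21.5 in control 3 and 8.54 in control 2 to values below 0 in the other 4 libraries. Muscle genes were also highest in controls 2 and 3, but in another order, with 10 of 11 kept highest in control 2. Libraries of the same set differed, gene by gene, with a standard deviation of 0.24 to 0.29 on the log2 scale (median 0.26, 6 pairs), against 0.25 to 0.38 for libraries of different sets (median 0.31, 9 pairs). The sets were not clean groups by this measure. Control 3 was nearest to control 2 of the other set (0.278), against 0.282 and 0.291 for control 1 and miR_cKO 1 of its own. The library miR_cKO 2 was nearest to control 2 (0.243), but nearer to control 1 of set A (0.247) than to miR_cKO 3 of its own set (0.249). Split by genotype instead, the medians were 0.28 for pairs of one genotype and 0.29 for pairs of different genotypes.

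**Figure D1:**
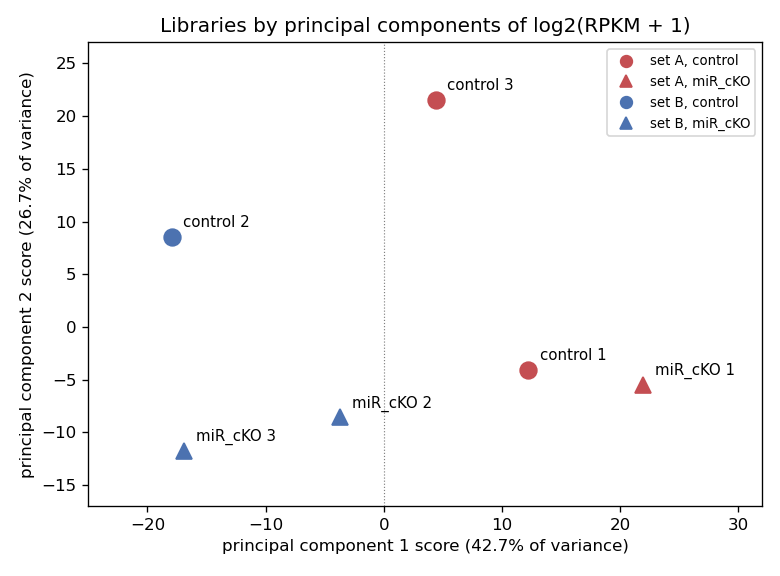
Scores of the 6 libraries on the first component (horizontal, 42.7% of variance) and the second (vertical, 26.7%) of log2(RPKM + 1), with color for the set and shape for the genotype. Both genotypes lie on each side of 0 on the first component, and control 3 and miR_cKO 2 lie nearest to 0.

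Of the 13118 genes, 1638 (12.49%) were parted with set A higher, 2033 (15.50%) with set B higher, and 3671 (27.98%) in all. The balance between the directions depends on the scaling: with globin and mitochondrial genes left out of the library totals, 2069 were parted with set A higher and 1620 with set B higher. These shares are given only as a background for the counts that follow, because the sets were picked from these values. Split by genotype, 1426 genes (10.87%) were parted, 607 higher and 819 lower in miR_cKO. No gene can be parted on both splits, since the sets cross the genotypes. Most differences between the sets were small. The median over all genes was -0.02 (set A minus set B), with 43.9% of genes higher in set A, and the 5th and the 95th percentile lay at -0.38 and 0.35. Among parted genes, 25 were at least 2-fold higher in set A and 14 in set B, and 151 and 100 were at least 1.5-fold higher.

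Nociceptor genes lay on the side of set A. Scn10a, which encodes the voltage-gated sodium channel Nav1.8 of nociceptors, stood at 22.8, 27.7 and 22.1 RPKM in set A (control 1, control 3 and miR_cKO 1, an order kept below) and at 8.72, 7.45 and 6.72 RPKM in set B (control 2, miR_cKO 2 and miR_cKO 3). The sets were far apart, and miR_cKO 1 sat with the 2 controls of its set. The difference was 1.54 on the log2 scale with a standard deviation within the sets of 0.17. Tac1, the gene of the peptide substance P, was at 2.00, 2.65 and 1.06 RPKM in set A and at 0.493, 0.249 and 0.530 RPKM in set B, a difference of 0.99. The sets did not overlap, but every value was low. In a bulk ganglion, fewer cells of a type and less RNA per cell cannot be told apart.

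Runx1, the transcription factor that directs the nonpeptidergic nociceptor fate, was at 3.45, 4.91 and 3.98 RPKM in set A and at 1.53, 1.30 and 1.67 RPKM in set B, a difference of 1.03. Trpv1, the capsaicin and heat receptor, was at 1.18, 1.70 and 2.34 RPKM against 0.312, 0.395 and 0.535 RPKM. P2rx3, an ATP-gated channel of nociceptors, was far more abundant and differed less: 126, 124 and 131 RPKM against 84.1, 91.8 and 74.3 RPKM, a difference of 0.60 (SD 0.11). Prdm12, a regulator needed for nociceptor development, differed by 0.45, the smallest difference of the kept members of this list.

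Of 14 nociceptor genes, 8 were kept, and these 8 were higher in set A and parted, where 12.49% of all genes were parted this way. Their median difference was 0.96 against -0.02 over all genes. With no filter on low values the median was 0.52. Tac1 and Trpv1 passed the filter only through set A and so had to differ. The 6 members that were not kept reached at most 1.51 RPKM in any library. Among them, Scn11a, the sodium channel Nav1.9, was at 0.454, 0.776 and 0.563 RPKM in set A and at 0.239, 0.222 and 0.203 RPKM in set B, whereas Calca, the gene of CGRP, overlapped between the sets at 0.533 to 1.51 RPKM. Averaged over the 8 kept members and set against each gene's mean of 6 libraries, set A lay between 0.38 and 0.58 and set B between -0.57 and -0.38.

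**Figure D2:**
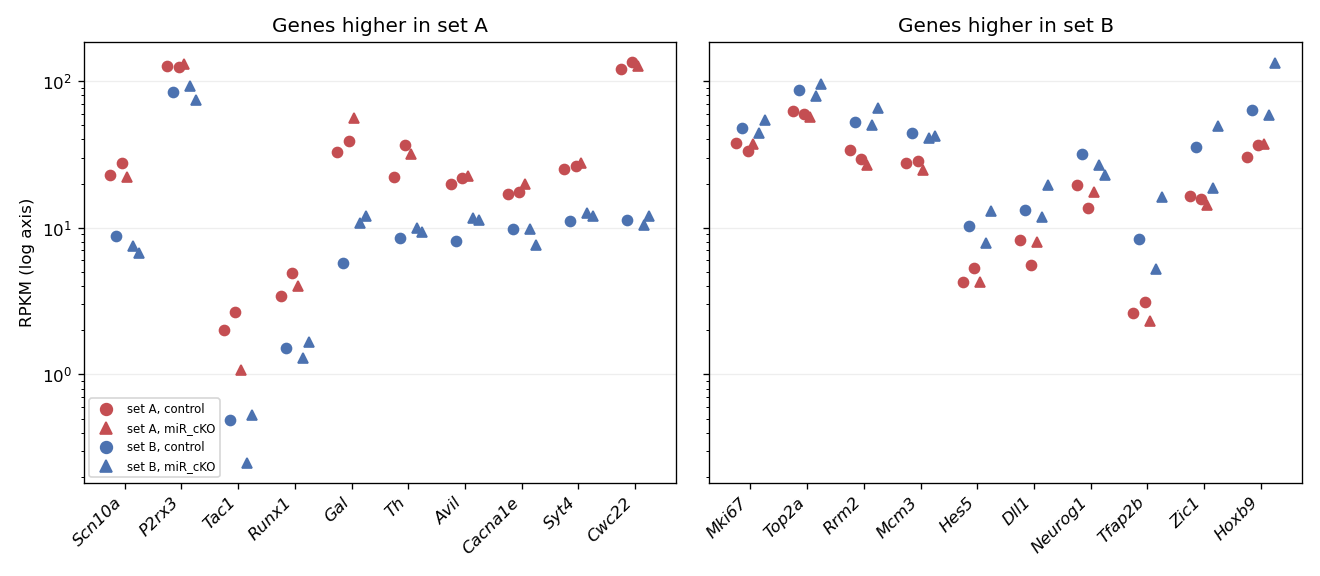
RPKM on a log axis in each library for 10 genes higher in set A (left) and 10 higher in set B (right), with color for the set and shape for the genotype. All 20 genes shown were picked among parted genes. By that choice the 3 set A values and the 3 set B values do not overlap, and the miR_cKO library of set A lies with the controls of its set.

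Lists of other sensory neuron classes held members that went both ways between the sets. Of 6 kept members of the proprioceptor list, 3 were higher in each set, with a median of -0.05. Only Heg1 was parted, with set B higher (16.7% of the list, against 15.50% of all genes). Etv1 had the largest difference of the list (0.54), at 10.4, 9.01 and 6.25 RPKM in set A and 7.05, 4.58 and 4.95 RPKM in set B. Spp1 differed by 0.35, and both overlapped between the sets. Ntrk3, the receptor TrkC of proprioceptors, was at 8.81, 7.99 and 9.92 RPKM in set A and at 9.53, 11.3 and 9.63 RPKM in set B, and the sets overlapped. Runx3, which directs the TrkC lineage, was at 18.1, 13.8 and 15.8 RPKM against 19.8, 19.2 and 13.1 RPKM. Its values overlapped as well. Of 6 kept genes of low-threshold mechanoreceptors, Etv4 and Ret were parted with set A higher (0.43 and 0.41) and Ntrk2, the gene of TrkB, with set B higher (-0.32). These were 33.3% and 16.7% of the list, against 12.49% and 15.50% of all genes. The median of this list was -0.03. Without miR_cKO 2 the medians of both lists changed sign, to 0.06 and 0.05.

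Genes shared by all sensory neurons differed in the same direction as nociceptor genes and by less. Of 17, 14 were higher in set A and 8 were parted (47.1%, against 12.49% of all genes), none with set B higher. The median was 0.26. The parted count was 5 with median centring and 13 without miR_cKO 2. Avil, the gene of the actin-binding protein advillin, led them at 19.8, 21.9 and 22.5 RPKM in set A and 8.07, 11.6 and 11.2 RPKM in set B. The intermediate filament genes followed, with Prph at 0.59, Nefm at 0.46 and Nefl at 0.36. Pou4f1, the Brn3a factor that all these neurons share, was at 77.6, 66.1 and 83.2 RPKM against 77.0, 82.2 and 69.3 RPKM (a difference of -0.01), and the sets overlapped. Isl1, another factor of all sensory neurons, was parted at 0.27.

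Ion channel and synaptic genes lay on the same side. Of 31 voltage-gated channel genes, 27 were kept and 26 of these were higher in set A (median 0.35). Of the 27, 18 were parted (66.7%, against 12.49% of all genes), none with set B higher. Cacna1e, a calcium channel pore subunit, was at 16.9, 17.5 and 19.9 RPKM in set A and at 9.84, 9.78 and 7.67 RPKM in set B. Both sets were tight and far apart. Cacna2d1, the gabapentin-binding calcium channel subunit, differed by 0.59 with a standard deviation within the sets of 0.04. Scn9a, the sodium channel Nav1.7, differed by 0.43 and was parted. Kcnd2 alone of the 27 was higher in set B. Of 23 kept synaptic vesicle genes, 21 were higher in set A (median 0.32). Of the 23, 13 were parted (56.5%, against 12.49% of all genes), among them Sv2b (0.70), Cplx1 (0.64), Syn2 (0.58) and Syp (0.36). Slc17a6, the vesicular glutamate transporter of these neurons, was not parted (0.24).

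Neuropeptide genes held the most divergent neuronal member. Gal, the gene of galanin, was at 32.9, 39.2 and 55.7 RPKM in set A and at 5.76, 10.7 and 12.0 RPKM in set B, a difference of 2.08 with a standard deviation within the sets of 0.45. The miR_cKO library was the highest of its set on the A side, and the 2 miR_cKO libraries were the higher ones on the B side. Of 13 neuropeptide genes, 7 were kept, and 4 of these (57.1%) were parted with set A higher, against 12.49% of all genes. The median was 0.35, 0.23 without control 3, 0.17 without controls 2 and 3, and 0.12 with no filter on low values. Tac1 and Cartpt, 2 of the 4, passed the filter only through set A. Adcyap1, the gene of PACAP, differed by 0.35, and Cartpt by 0.91. Npy, at 7.19 to 10.6 RPKM in set A and 6.71 to 13.05 RPKM in set B, overlapped.

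Th, tyrosine hydroxylase, the rate-limiting enzyme of catecholamine synthesis, was at 22.2, 36.9 and 31.6 RPKM in set A and at 8.57, 10.03 and 9.34 RPKM in set B, a difference of 1.57. Defining genes of sympathetic neurons were near 0 in every library, with Dbh at most 0.158 RPKM and Slc6a2 at most 0.015 RPKM. Of 11 genes of the sympathetic list, only Th, Chga (0.55, parted) and Ddc (0.01) were kept.

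The largest difference of all belonged to a gene that is not neuronal. Cwc22, a splicing factor encoded on chromosome 2 (mm10, 77881159 to 77946375, minus strand), was at 121, 134 and 126 RPKM in set A and at 11.2, 10.5 and 12.0 RPKM in set B. The difference was 3.39 with a standard deviation within the sets of 0.08, and control 2 sat with miR_cKO 2 and 3. The space between its sets was 3.23 on the log2 scale, and the next widest, that of Gal, was 1.38. Cwc22 lies in a segment whose copy number is known to vary among mouse strains. Of 10 kept neighbours within 1.83 Mb, none came near it: their differences ran from -0.22 (Plekha3) to 0.40 (Ppp1r1c), with 3 parted with set A higher and Plekha3 with set B higher. Across chromosomes, the share of genes parted ran from 8.66% (chromosome 15) to 15.8% (chromosome 18) with set A higher and from 11.9% to 19.9% with set B higher, leaving out the 4 kept Y-linked and 33 mitochondrial genes, of which none was parted.

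Other parted genes with large differences in favor of set A had varied known roles. Rd3, a regulator of guanylate cyclase known from the retina, differed by 1.37, and Kcnh6, a potassium channel of the ERG family, by 1.29. Islr2, a membrane protein of growing sensory axons, was at 35.2, 56.6 and 64.6 RPKM in set A and at 18.2, 22.9 and 20.2 RPKM in set B. Gnat3 (1.17), the gustducin subunit of taste cells, Sfrp5 (1.15), a secreted Wnt antagonist, Syt4 (1.08), a synaptotagmin, Fam102b (1.04), Tub (1.03) and Ppef1 (1.00) were also among the 15. Syt4 was among the tightest, at 25.2, 26.1 and 27.4 RPKM against 11.2, 12.6 and 12.0 RPKM.

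Cell cycle genes lay on the side of set B. Mki67, the gene of the proliferation antigen Ki-67, was at 37.5, 33.5 and 37.0 RPKM in set A and at 48.1, 43.9 and 53.9 RPKM in set B, a difference of -0.42 (SD 0.12). Top2a, the topoisomerase that resolves chromosomes in mitosis, was at 62.3, 60.0 and 56.5 RPKM against 87.0, 78.9 and 95.9 RPKM, a difference of -0.54 (SD 0.11). Neither gene overlapped between the sets, and since each set holds both genotypes, each side of such a gene does too. The largest difference of this list was that of Rrm2, the subunit of ribonucleotide reductase made in S phase, at 33.8, 29.3 and 26.8 RPKM against 52.7, 49.8 and 65.9 RPKM (-0.88).

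Each of the 46 cell cycle genes on the list was kept and higher in set B, and 45 of them were parted, where 15.50% of all genes were parted this way. Their differences were narrow in range, from -0.88 to -0.34, with a median of -0.49. Replication genes such as Mcm3 (-0.64) and mitotic genes such as Aurka (-0.62), Bub1 (-0.61) and Bub1b (-0.60) lay close together. The exception to parting was Ccnd1, cyclin D1, at 18.3, 20.1 and 23.3 RPKM against 31.5, 22.4 and 44.9 RPKM, where miR_cKO 2 lay just under miR_cKO 1. Of the 46, 30 were highest in miR_cKO 3, 15 in control 2 and 1 in miR_cKO 2, and 38 were lowest in miR_cKO 1. Replication-dependent histone genes, which are transcribed in S phase, did not part in this way: of 17 kept of 75, 14 were higher in set B and 1 was parted. They summed to 74.2 to 126 RPKM in set A and 98.1 to 111 RPKM in set B. Since polyadenylated RNA was sequenced, the histone rows need not follow histone transcription in S phase. Genes of macrophages, which are not of the crest lineage, summed to 28.1 to 44.0 RPKM in set A and 50.4 to 57.2 RPKM in set B. Their part in the cell cycle difference was not tested.

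Because these genes parted together, their promoters were searched for the motifs known from cell cycle genes. Sequences came from RefSeq (GRCm38.p6, mm10), cover 250 bases before the start site, and were searched on both strands for CCAAT, the box bound by NF-Y, for TTTGAA, the cell cycle homology region bound by the DREAM complex, and for TTTCGCGC or TTTGGCGC, forms of the E2F site. No motif contains another, and each was counted on its own. The 3 promoters shown belong to the markers Top2a and Mki67 and to Cdk1, the mitotic kinase, which was at 25.3, 25.5 and 22.3 RPKM in set A and at 35.7, 35.3 and 35.3 RPKM in set B. They are printed 5′ to 3′ on the gene's strand, with every match of the 3 motifs or its reverse complement in capitals.
Top2a, chr11:99024190-99024439, minus strand: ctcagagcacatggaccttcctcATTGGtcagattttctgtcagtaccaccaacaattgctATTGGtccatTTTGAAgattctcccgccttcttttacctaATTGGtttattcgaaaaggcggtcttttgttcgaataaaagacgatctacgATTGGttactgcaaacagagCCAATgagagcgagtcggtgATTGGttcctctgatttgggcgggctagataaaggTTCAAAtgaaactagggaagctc
Mki67, chr7:135716380-135716629, minus strand: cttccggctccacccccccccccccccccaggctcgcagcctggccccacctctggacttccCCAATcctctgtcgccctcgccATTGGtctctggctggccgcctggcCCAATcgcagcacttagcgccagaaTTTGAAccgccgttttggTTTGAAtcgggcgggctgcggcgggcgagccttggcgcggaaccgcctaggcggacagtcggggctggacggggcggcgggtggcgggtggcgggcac
Cdk1, chr10:69352913-69353162, minus strand: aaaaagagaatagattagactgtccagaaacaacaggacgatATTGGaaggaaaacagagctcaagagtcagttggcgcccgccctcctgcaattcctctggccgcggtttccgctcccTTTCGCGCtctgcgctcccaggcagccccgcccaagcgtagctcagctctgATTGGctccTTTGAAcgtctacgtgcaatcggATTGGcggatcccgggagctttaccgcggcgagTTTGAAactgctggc

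The promoter of Top2a held 8 matches, that of Mki67 5 and that of Cdk1 6. Other cell cycle promoters read out held fewer: Ccnb2 4, Bub1, Aurka and Ccnb1 2 each, and Rrm2 1. Of all these, only that of Cdk1 held an E2F form. Of the 46 cell cycle genes, 37 matched an entry of the promoter table. A CCAAT match was present in 27 of these (73.0%), against 41.1% of the 9088 kept genes with an entry and 37.5% of all 27025 promoters of the same length. TTTGAA was present in 10 of the 37, against 12.2% of the kept genes and 18.3% of all promoters, and an E2F form in 3 (8.11%), against 1.52% and 0.759%. Other lists held the first 2 motifs as well: CCAAT was present in 8 of 12 neurogenesis promoters (66.7%), 7 of 11 of sensory neurons (63.6%) and 3 of 6 of nociceptors, and TTTGAA in 5 of 16 of voltage-gated channels (31.2%). A match describes the letters and does not show that a factor bound there.

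Genes of neurogenesis and Notch signalling lay mainly on the side of the cell cycle genes. Of 14, 11 were higher in set B, 7 of these parted, and the median was -0.39. Hes5, a Notch effector that holds cells as progenitors, was at 4.28, 5.35 and 4.26 RPKM in set A and at 10.2, 7.84 and 13.03 RPKM in set B (-0.99). Dll1, a Notch ligand of cells entering differentiation, was at 8.30, 5.53 and 7.93 RPKM against 13.3, 11.8 and 19.6 RPKM (-0.93). Neurog1, the proneural factor that drives the nociceptor wave of neurogenesis, was at 19.5, 13.7 and 17.6 RPKM against 31.6, 26.8 and 23.0 RPKM (-0.65). Control 2 was the highest for Neurog1 and miR_cKO 3 for Hes5 and Dll1. Nhlh1, a factor of newly formed neurons, was parted the opposite way (0.29), and Neurod1, which follows Neurog1 in the same cells, overlapped (0.05). Genes of developmental timing, which decline as embryonic tissues mature, were higher in set B in each of the 8 kept members. Of these, 5 (62.5%) were parted, against 15.50% of all genes, and the median was -0.31, or -0.22 without miR_cKO 1. They included Hmga1 (-0.53) and the RNA-binding proteins Igf2bp1 (-0.37), Igf2bp2 (-0.24) and Igf2bp3 (-0.23).

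**Figure D3:**
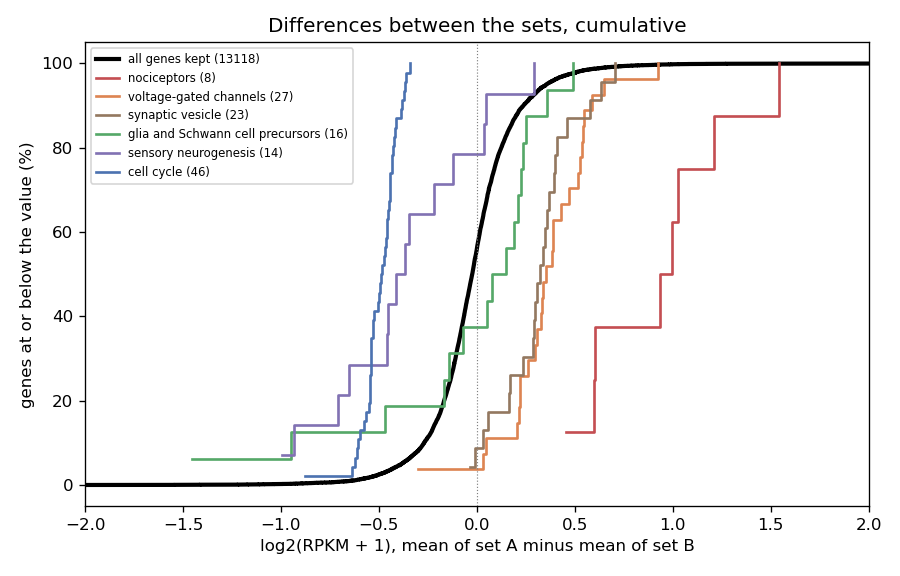
Cumulative share of genes (vertical, percent) at or below each difference (horizontal, mean of set A minus mean of set B in log2(RPKM + 1)) for all 13118 kept genes and 6 gene lists. Cell cycle genes lie wholly to the left, from -0.88 to -0.34, nociceptor genes wholly to the right, from 0.45 to 1.54, and all genes center near -0.02.

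Of the 15 parted genes with the largest differences in favor of set B, 12 were highest in miR_cKO 3 and 3 in control 2. Tfap2b, an AP-2 factor of neural crest and dorsal neural tube, was at 2.64, 3.11 and 2.30 RPKM in set A and at 8.38, 5.25 and 16.2 RPKM in set B (-1.45). Zic1, a zinc finger factor of the dorsal neural tube, was at 16.5, 15.6 and 14.3 RPKM against 35.3, 18.7 and 49.5 RPKM (-1.01). In both genes the sets did not overlap, but miR_cKO 2 lay much nearer to set A than control 2 and miR_cKO 3 did. Pax3 (-1.04), which marks the dorsal neural tube, early neural crest and myotome, and Zic4 (-1.11) had the same order. Dcc, the netrin receptor of commissural axons, was at 4.70, 3.97 and 5.16 RPKM against 7.48, 5.28 and 21.6 RPKM. Its difference was -0.93, and -0.39 without miR_cKO 3. The 20 genes of the spinal cord list summed to 26.1 RPKM in miR_cKO 3 and to 2.57 to 7.41 RPKM in the other 5 libraries. Most of that sum came from Lhx1 (9.07 RPKM), Lhx5 (5.23 RPKM), Pax2 (4.66 RPKM) and Pax6 (3.59 RPKM). Of the 20, 7 were highest in miR_cKO 3, 12 in other libraries and Mnx1, the motor neuron factor, was at 0 throughout. Only Lhx1 and Pax6 were kept. Their part in the differences was not tested.

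Hox genes, which encode position along the trunk, were also mostly highest in miR_cKO 3, but the other libraries did not keep the order above. Of 21 kept members of groups 1 to 8, 19 were higher in set B and 7 were parted (median -0.48), and 18 of the 21 were highest in miR_cKO 3. Without that library the median was -0.25. Of 10 kept members of groups 9 to 13, 8 were higher in set B and 5 were parted (median -0.41, or -0.62 without control 1), with 8 of the 10 highest in miR_cKO 3 and 2 in control 1. Hoxb9 was at 30.3, 36.4 and 37.3 RPKM in set A and at 63.1, 58.8 and 132 RPKM in set B, a difference of -1.17, and -0.80 without miR_cKO 3. Hoxc6 differed by -0.89. Rec8 (-1.70), a cohesin subunit of meiosis, Frzb (-1.03) and C1qtnf3 (-1.52), both secreted proteins, Mir17hg (-0.93), the host of a microRNA cluster, Pop4 (-0.90), an RNase P subunit, and the row listed under Mir214 (-1.54) completed the 15. Reads of a poly(A) library on that row need not come from the mature microRNA.

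Glial genes were divided. Of 18, 16 were kept, 10 were higher in set A and 6 in set B, with 2 parted each way, a share near that of all genes, and a median of 0.11, or 0.05 without miR_cKO 3. Sox10, the factor that defines the glial and crest lineage, was at 47.7, 41.4 and 45.1 RPKM in set A and at 53.5, 58.6 and 38.4 RPKM in set B, and the sets overlapped. Fabp7, a lipid-binding protein of glial precursors, was at 923, 836 and 814 RPKM against 666, 762 and 734 RPKM (0.25). Mbp, a myelin protein gene, was parted the same way (0.36), whereas Tfap2a (-0.47) and Tfap2b, factors of early crest cells, were parted with set B higher. The members went both ways, from -1.45 to 0.49, and their averages in the libraries ran from -0.10 to 0.05 around the mean.

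**Figure D4:**
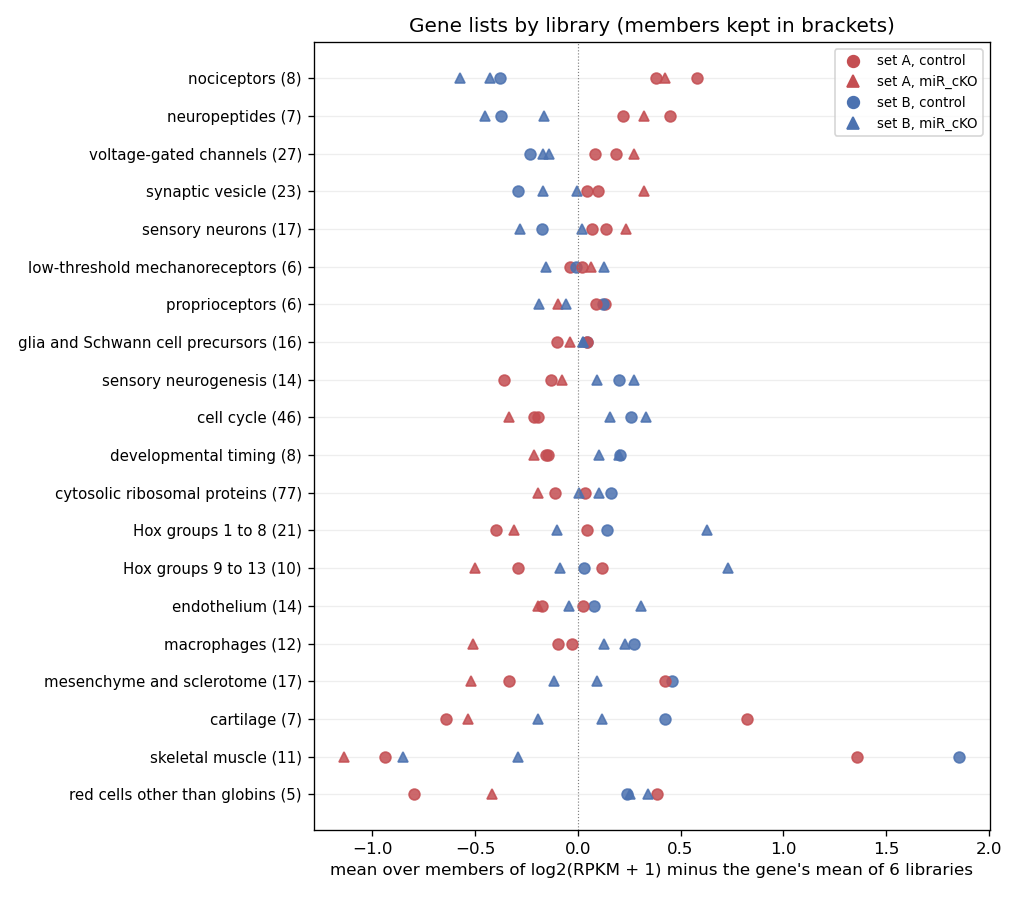
Mean over the kept members of each gene list of log2(RPKM + 1) minus each gene's mean of 6 libraries (horizontal), 1 point per library, with color for the set and shape for the genotype. Nociceptor, neuropeptide and channel lists have set A on the right with no overlap, the neurogenesis and cell cycle lists have set B on the right, and skeletal muscle has controls 2 and 3 far to the right of the other 4 libraries.

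Tissues that are not of crest origin differed between the sets in several ways. Macrophage genes were higher in set B in each of the 12 kept members (median -0.41), and 5 were parted (41.7%, against 15.50% of all genes). Cx3cr1, the fractalkine receptor, was at 2.11, 2.30 and 1.36 RPKM in set A and at 2.98, 3.16 and 3.38 RPKM in set B. Pf4 (-0.67) and Csf1r (-0.37), the receptor that macrophages need to survive, were parted too, and miR_cKO 1 had the lowest value of each of these 3 genes. Endothelial genes were higher in set B in each of 14 members, with 3 parted (21.4%, near the 15.50% of all genes). Their median was -0.22, but -0.10 without miR_cKO 2, the highest library of this list. Pericyte genes went both ways: of 4 kept, 2 were higher in each set and 1 was parted each way (median -0.06). Their differences ran from -0.45 (Rgs5, parted) to 0.18.

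Muscle and mesenchyme did not follow the sets although their medians were negative. Of 23 muscle genes, 11 were kept, none was parted, and the median of -0.52 turned to 0.25 without control 2 and reached -1.20 without control 3. Myog, the myogenic factor myogenin, was at 0.396, 14.8 and 0.264 RPKM in set A and at 13.1, 0.714 and 2.76 RPKM in set B. Controls 2 and 3 were thus high on both sides. Genes of mesenchyme and sclerotome had the same 2 libraries highest (1 of 17 parted; median -0.26, -0.06 without miR_cKO 1 and -0.50 without control 3), and for cartilage genes the median of -0.29 became 0.02 without miR_cKO 1. Red cell genes other than globins were higher in set B in 5 of 5 kept members with 1 parted. Control 1 was the highest library of this list and control 3 the lowest, both in set A, so the median of -0.51 was -0.91 without control 1 and -0.32 without control 3. The cell cycle median stayed between -0.54 and -0.45 when any one library was left out, and was -0.51 without controls 2 and 3 together. That of nociceptors, 0.77 to 1.02 with any one library left out, was 0.78 without those 2 controls.

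Genes of general cell state mostly differed by small amounts, though some lists kept the same direction throughout. Cytosolic ribosomal protein genes were higher in set B in 77 of 77 kept members, with a median of -0.18 (-0.12 without miR_cKO 1). Of the 77, 32 were parted (41.6%), where 15.50% of all genes were parted this way. Cholesterol synthesis genes were higher in set A in 12 of 12 (median 0.20), led by Lss (0.42), with 2 parted (16.7%, near the 12.49% of all genes). Of 12 hypoxia and glycolysis genes, 10 were higher in set B (median -0.20, -0.14 without control 2 or miR_cKO 1), with Slc2a1, the glucose transporter GLUT1, parted at -0.46 and Ldha at -0.31, and Ndrg1 was parted with set A higher (0.53). Of 6 immediate early genes, which respond to handling and stimulation within minutes, Btg2 (-0.45) and Jun (-0.39) were parted with set B higher and the median was -0.16. Mitochondrially encoded genes had a median of 0.09 and none was parted. That median was 0.27 without control 3, 0.044 without control 1, 0.047 without control 2 and -0.011 without miR_cKO 1. They took 10.2% to 13.6% of the summed values in set A and 10.7% to 11.7% in set B.

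The sets and the genotypes are partly confounded, since set A has 2 of the 3 controls. Scn10a averaged 19.7 ± 9.83 RPKM in controls and 12.1 ± 8.68 RPKM in miR_cKO (SD, n = 3 each). Its genotype change of -0.71 (SE 0.54) on the log2 scale had an adjusted p of 1.00 by limma with Benjamini-Hochberg adjustment over 13118 genes. With the set as a covariate the change was -0.22 (SE 0.09), with an adjusted p of 0.454 by limma. Tac1, Mki67 and Top2a also had adjusted p of 1.00 for genotype by limma, and the change of Top2a went from 0.13 to -0.06 with the set as a covariate. Of the 190 genes named for the sets by rule, none was called between genotypes at an adjusted p under 0.05, the smallest being 0.107 by limma. These genes were picked for differences that widen the spread within each genotype. Their lack of calls therefore does not show that genotype leaves them unchanged, and with the set as a covariate 3 of them were called.

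Between genotypes, limma called 8 of 13118 genes (0.0610%), 7 higher and 1 lower in miR_cKO, with 677 at an unadjusted p under 0.05. They were Nova2, Vat1, Onecut3, Slc25a1, Arf2, Atp1b3, 4930402H24Rik and Stx2, the last lower in miR_cKO. None was parted between the sets. The count was 0 with the replicate number as a block, with upper quartile scaling and with scaling without globin and mitochondrial genes. With the set as a covariate, limma called 61 genes (0.465%), 52 higher and 9 lower, which included all 8, with 1466 at an unadjusted p under 0.05. The 9 lower are rows, and 4933409K07Rik and Ccl19 each fill several of them, so fewer than 9 separate genes were lower. Of the 61, 2 were parted between the sets. Since the covariate was taken from the same values, these p-values are not independent of the choice of sets, and the count was 0 without miR_cKO 1 or without miR_cKO 3, 3 without miR_cKO 2 and 6 without control 2.

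Genes added by the covariate fall into a simple pattern of values. Gal, at 32.9 and 39.2 RPKM in the controls of set A and 55.7 in its miR_cKO library, and at 5.76 RPKM in the control of set B and 10.7 and 12.0 RPKM in its miR_cKO libraries, was higher in miR_cKO on each side. Its genotype change was -0.03 without the set term and 0.74 with it (SE 0.10, limma adjusted p = 0.0491). Cacna2d2, a calcium channel subunit of the same drug-binding family as Cacna2d1, was at 16.7 and 19.2 against 29.6 RPKM in set A and at 9.73 against 16.7 and 17.9 RPKM in set B, and changed by 0.73 with the term (limma adjusted p = 0.0288). Hspb8, a small heat shock protein, was lower in miR_cKO in both sets, with a change of -0.78 with the term (limma adjusted p = 0.0288). Rab3c, a synaptic vesicle GTPase, was at 7.10 and 9.17 against 14.995 RPKM in set A and at 5.63 against 11.9 and 13.4 RPKM in set B. Jazf1 (1.25), a zinc finger cofactor, and Adcy6 (0.62), an adenylyl cyclase, were likewise higher in each set's miR_cKO libraries, and Gng8 (-0.9997), a G protein gamma subunit, was lower.

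**Figure D5:**
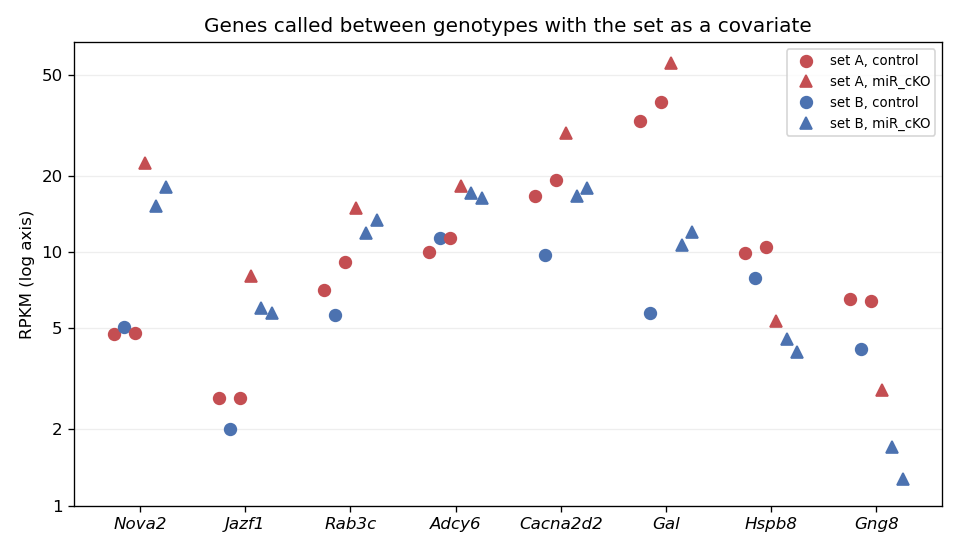
RPKM on a log axis in each library for 8 genes called between genotypes with the set as a covariate, with color for the set and shape for the genotype. Nova2 was called without the covariate as well, whereas for Gal and Cacna2d2 the miR_cKO libraries of set B lie below or among the controls of set A and above the control of set B.

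The deleted microRNAs act by pairing of their seed with 3′ UTRs of target transcripts. Their mature sequences, from RefSeq (GRCm38.p6), are shown to define the sites counted, with the seed (bases 2 to 8) in capitals. miR-183 and miR-96 share the end of their seeds and miR-96 and miR-182 the start.
mmu-miR-183-5p: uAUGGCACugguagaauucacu
mmu-miR-96-5p: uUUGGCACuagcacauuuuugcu
mmu-miR-182-5p: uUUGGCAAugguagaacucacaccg

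A site was counted where a 3′ UTR of the annotation (GENCODE vM21) held the complement of a seed, or that of its first 6 bases followed by A. Median differences between the sets were -0.03 in 7357 genes with no site, -0.02 in 2444 with 1, -0.02 in 862 with 2 and -0.02 in 460 with 3 or more. Genotype changes over the same 4 classes had medians of -0.04, -0.01, 0.02 and 0.04, and with the set as a covariate -0.06, -0.01, 0.02 and 0.04. Of the 52 genes called higher with the covariate, 44 had an annotated 3′ UTR and 86.4% of these carried a site, against 33.9% of 11123 kept genes with one. Among the 45 that were called only with the covariate, 83.8% of 37 did. UTR lengths were not matched in these shares. Of nociceptor genes 37.5% carried a site, of voltage-gated channel genes 52.0%, of synaptic vesicle genes 39.1% and of cell cycle genes 17.4%. Of genes parted with set A higher 36.9% did, and of those with set B higher 32.2%.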

How the data were processed

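The authors deposited 1 table of 24264 genes by 6 libraries, with decimal commas and no unit in its header, and its values were read as RPKM because they move in steps that depend on transcript length. The values alone do not separate RPKM from FPKM. Per the submitters' processing notes, Bowtie and mm10 were used, and neither the counting tool nor the annotation is named there. Depth in M reads was estimated from the steps. Relative depth came from the commonest ratio of low values, and absolute depth from 4537 genes with 1 annotated transcript, of whose low values 39.3% fell within 0.05 of a whole read, so it is approximate.

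Genes with 1 RPKM or more in at least 3 libraries were kept and taken to log2(RPKM + 1). The 2 sets, the 35 gene lists and the rules were chosen with earlier results of these data known. Differences between sets were described with no test. Genotype was fitted with limma 3.58.1 (trend and robust) in R 4.3.3, 3 against 3, with Benjamini-Hochberg adjustment, and again with the set as a covariate. The fit was tested on simulated data. Named genes were the 4 markers, the 15 largest parted differences each way with a set mean of 5 RPKM or more (clone symbols, sex-linked genes and globins left out), up to 6 members of each list with 3 or more kept, and genes called for genotype that were also parted. Other genes named were picked after their values were seen. Tables and figures were made in Python 3.11.15 with NumPy 2.4.6, pandas 2.3.3 and matplotlib 3.10.9. Alternatives covered pseudocounts, filters, scalings, left-out libraries and the model's terms. Genes with near-identical copies, such as globin and histone genes, are uncertain because shared reads may have been split. Some list members are not reported here by name.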

Additional observations from a re-analysis of the deposited data

How the results depend on the processing

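Of 2574 differences between the sets for 190 named genes under the alternatives, 2555 stayed within the spread of the sets and 19 moved. Parted genes alone could be counted as changing sign, and leaving out a library cannot reverse them. Their count of 0 was thus largely fixed in advance and says nothing of genes that were not parted. The nociceptor median of 0.96 was 1.30 with a pseudocount of 0.1, 1.21 with 0.5, 0.52 with no filter, 0.78 without controls 2 and 3 (chosen after seeing the data) and 0.77 to 1.02 with 1 library left out. Channel genes had 0.45 with a pseudocount of 0.1, neuropeptides 0.12 with no filter and 0.17 without controls 2 and 3, and cholesterol genes 0.33 without those 2. For developmental timing the median was -0.24 with no filter, -0.22 without controls 2 and 3, and -0.35 to -0.22 with 1 library left out. Glia had 0.19 with a minimum of 5 RPKM in either form and 0.054 to 0.14 with 1 library left out, and macrophages -0.67 among members with a mean of 5 RPKM or more. Fewer libraries part more genes by construction: 4610 to 5559 with 1 left out (2393 to 3613 higher in set B), both highest without control 3, and 6532 without controls 2 and 3 (2467 and 4065). With a minimum of 5 RPKM, 4 nociceptor and 11 channel genes were parted. Median centring left 5 sensory neuron genes parted. Scaling moved the median of all genes by less than 0.03.

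The 8 genotype calls of limma were 0 with the replicate block (847 genes at an unadjusted p under 0.05), 0 with no variance trend (705), 0 with upper quartile scaling (698), 0 with scaling without globin and mitochondrial genes (681), 2 with median centring and 0 to 2 with 1 library left out. The replicate numbers did not pair the libraries: deviations of same-numbered libraries correlated at 0.359, 0.330 and -0.221, and control 2 correlated best with miR_cKO 3 (0.524). With the set as a covariate, 61 genes were called, and this became 7 with no filter, 125 with median centring and 102 without globin and mitochondrial genes in the scaling. It was 6 without control 2, 3 without miR_cKO 2, 0 without miR_cKO 1 (469 unadjusted), 0 without miR_cKO 3 (1491 unadjusted) and 86 without control 1. The sets came from these values, and the further settings of this fit were chosen after seeing the data. Fits with a library left out have fewer residual degrees of freedom, and a lone library of a set is assumed to vary like the rest. The genotype change of Top2a was -0.055 with the set term, and -0.041 to 0.33 with 1 library left out, the lowest without miR_cKO 3.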

Other observations

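Some genes set single libraries apart from the others of either set. In control 1, Hox genes of the most posterior groups were present: Hoxc13 was at 5.57 RPKM there and at most 0.051 RPKM in the other 5 libraries, and Hoxc12 was at 2.20 RPKM against 0 throughout. Hoxd11 was at 6.95 RPKM in control 1, 4.20 RPKM in miR_cKO 3 and 0.696 to 1.74 RPKM elsewhere, and Hoxc11 ran in the same order at 5.41, 2.76 and 0.636 to 1.25 RPKM. These genes are active in the lower lumbar and sacral trunk. Control 1 and miR_cKO 3 belong to different sets and different genotypes, so this order crosses both splits.

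In miR_cKO 3, Pax2 and Lhx5, factors of spinal interneurons, were at 4.66 and 5.23 RPKM and at most 1.17 and 1.00 RPKM elsewhere, and Wnt1, which marks the roof plate of the neural tube, was at 4.56 RPKM against 0.147 to 1.88 RPKM. Sox9, which crest, glial and cartilage cells all express, was at 9.18 RPKM in miR_cKO 3, 6.02 and 3.84 RPKM in controls 2 and 3, and 0.998 to 1.54 RPKM in control 1 and miR_cKO 1 and 2.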
